A study of Drosophila melanogaster with 10 samples.

Results

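The testis TAFs of Drosophila melanogaster are 5 genes, can, sa, mia, nht and Taf12L (also called rye), each a testis-expressed relative of a subunit of the general transcription factor TFIID. They were found by matching these symbols to the FlyBase identifiers of the count files. All 5 were present among 17412 identifiers, and all 5 passed the filter on low counts that left 13831 genes. RNA was taken from whole testes in 5 conditions of 2 libraries each, with 100 pairs of testes per library from males under 2 days old. WT is described by no strain beyond its name, grew at 22°C for 10 days, and holds every stage of male germ cell. The sa mutant is homozygous (sa-/-, allele not named), grew at 22°C for 12 days and is labelled as enriched for mature spermatocytes. The 3 knockdowns express an RNA interference construct against B9d1, Tektin-C or Klp59D in a w background with bam-Gal4 and UAS-dicer2. bam-Gal4 is a germ line driver that acts in late spermatogonia, so somatic cells of the testis do not carry the knockdown. The knockdowns grew at 22°C for 3 days and then at 30°C for 8 days. B9d1 KD is labelled as enriched for young spermatocytes and the other knockdowns for mature spermatocytes. Driver, extra Dicer-2 and temperature therefore separate all knockdowns from WT and from the sa mutant, and cannot be told apart from the knockdown itself.

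TFIID, built from the TATA-binding protein and its associated factors (TAFs), binds core promoters and recruits RNA polymerase II. Many of its TAFs pair through histone folds, as Taf4 does with Taf12. Primary spermatocytes make in addition the testis TAFs: can is the relative of Taf5, sa of Taf8, mia of Taf6, nht of Taf4 and Taf12L of Taf12. Together with tMAC, the testis meiotic arrest complex, they are known for switching on the genes of spermatid differentiation. Males that lack any of the testis TAFs studied by mutation arrest as mature primary spermatocytes and make no sperm.

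The 10 libraries held 17621525 to 30798942 counts. The 2 libraries of each condition differed by little more than counting noise, with a depth ratio of 1.11 to 1.12 in all 5. The median squared deviation over genes was 1.03 to 1.08 times the binomial expectation within conditions and 31.4 to 178.5 times between them. The counts of each condition were therefore summed and treated as 1 sample, no comparison has a replicate check, and no p-value is given. Intervals in square brackets are exact 95% intervals for counting error only. Levels are counts per 1000000 scaled counts (CPM), with TMM scaling factors over the samples. The check of the targeted genes went against 2 labels: Tektin-C stood at 203 CPM in the sample labelled Tektin-C KD and at 12.1 CPM in that labelled Klp59D KD, against 221 CPM in WT. Klp59D stood at 29.7 and 335 CPM in the same order, against 340.3 CPM in WT. These samples are called by their labels, and any direction drawn from them follows the label. B9d1 stood at 9.44 CPM in B9d1 KD and at 109 to 194 CPM elsewhere.

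All 5 genes lie on the minus strand of the dm6 assembly and code for proteins. The can gene (FBgn0011569) spans 3L, 10263909 to 10267111, with 2953 bases of exon, and sa (FBgn0002842) spans 3L, 21405425 to 21406738, with 956. The mia gene (FBgn0014342) spans 3R, 5548115 to 5551168, and has 3 annotated transcripts and 2590 bases of merged exon. On 2L, nht (FBgn0041103) spans 15317954 to 15318901 in a single exon of 948 bases, and Taf12L (FBgn0031623) spans 4700835 to 4701485 with 591 bases of exon. Both sa and Taf12L lie inside a gene on the opposite strand, rgn for sa and dcma for Taf12L, with 0 shared exon bases. The host rgn stood at 51.1 to 109 CPM, highest in WT, and dcma at 0.231 to 1.55 CPM, highest in the sa mutant. The counter's use of strand is not given in the sources used here, but exon reads of these pairs do not coincide.

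Transcripts of the testis TAFs did not form a single block. All 5 were higher than WT in all 3 knockdowns, Taf12L by the least, at 1.28-fold to 1.52-fold. The can, sa, nht and Taf12L transcripts were lowest in WT among samples not mutant for the gene itself. In the sa mutant, can, nht and Taf12L stood more than 5 times above WT, sa itself was depleted, and mia lay close to WT. The mia transcript had another order, with its highest levels in the samples labelled Tektin-C KD and Klp59D KD. With bulk testes, fewer cells of a type and less RNA per cell cannot be told apart.

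**Figure D1:**
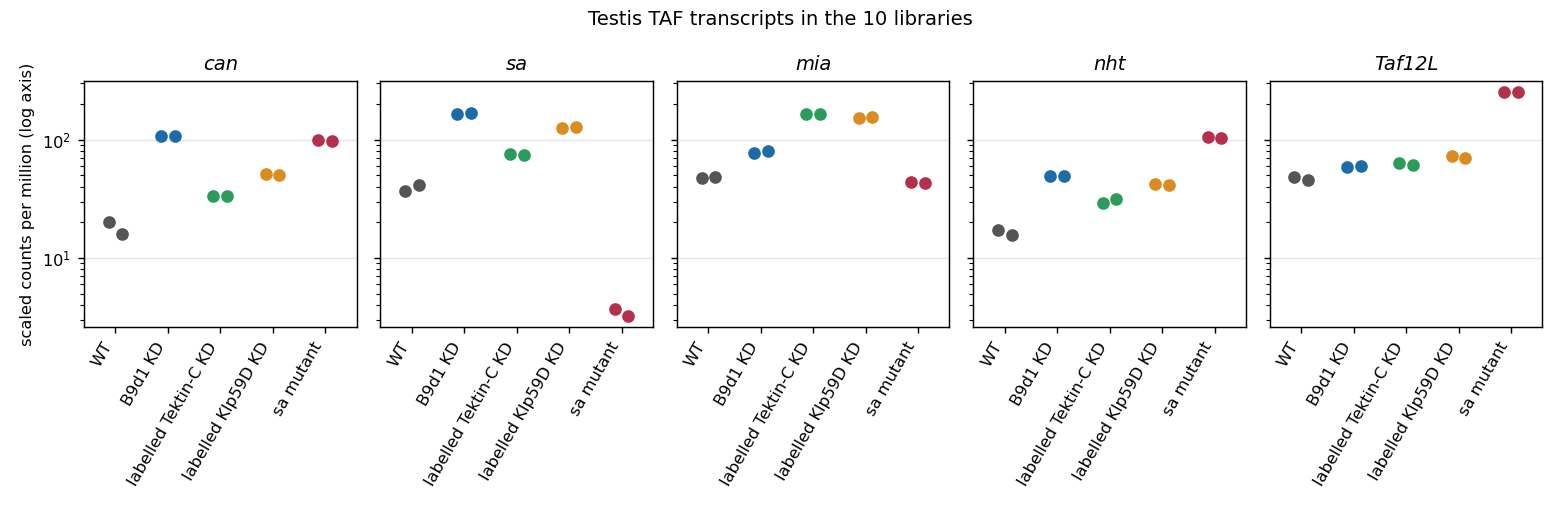
CPM (scaled counts, log axis) of the 5 testis TAFs, with 1 point per library and 2 libraries per condition. The 2 points of a condition lie close, and are farthest apart for can in WT at 20.2 and 16.0 CPM. Taf12L stands apart in the sa mutant at 251 and 252 CPM, and mia is highest in the 2 samples labelled Tektin-C KD and Klp59D KD.

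The can protein is a WD-repeat protein related to Taf5, a scaffold subunit of TFIID. The WT libraries had 20.2 and 16.0 CPM, the B9d1 KD libraries 107 and 108, the libraries labelled Tektin-C KD 33.1 and 33.5, those labelled Klp59D KD 51.0 and 50.7, and the sa mutant ones 99.2 and 97.9. B9d1 KD and the sa mutant were thus the high samples and WT the low one, and no neighbours in this order overlapped. The smallest step was that from the sa mutant to B9d1 KD, 1.09-fold [1.05 to 1.14], which is not resolved from a change of scaling: with library size alone the log2 fold moved from 0.13 to -0.06. Against WT the fold was 5.99 [5.48 to 6.56] in B9d1 KD, 1.86 [1.68 to 2.05] in the sample labelled Tektin-C KD, 2.83 [2.58 to 3.11] in that labelled Klp59D KD and 5.49 [5.01 to 6.02] in the sa mutant. The WT libraries of can differed by 1.27-fold, the widest gap of any testis TAF within a condition, on 277 and 244 counts.

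The sa protein is related to Taf8, which pairs with Taf10 in TFIID. The WT libraries had 36.7 and 41.4 CPM, the B9d1 KD libraries 164 and 169, the libraries labelled Tektin-C KD 76.4 and 74.6, and those labelled Klp59D KD 125 and 129. The sa mutant libraries had 3.73 and 3.24 CPM, from 85 and 83 counts. Every neighbouring pair of conditions was apart without overlap. Against WT, sa was 4.26-fold higher in B9d1 KD [4.003 to 4.53], 1.93-fold in the sample labelled Tektin-C KD [1.80 to 2.06] and 3.25-fold in that labelled Klp59D KD [3.05 to 3.46]. The sa mutant had it 11.3-fold lower than in WT [9.59 to 13.4]. Since the allele is not named, which part of the gene the remaining counts cover was not analysed here.

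The histone-fold relatives nht and Taf12L are known to bind each other, as Taf4 and Taf12 do. For nht, the WT libraries had 17.3 and 15.6 CPM, the B9d1 KD libraries 49.5 and 48.9, the libraries labelled Tektin-C KD 28.9 and 31.8, those labelled Klp59D KD 42.2 and 41.6, and the sa mutant ones 106 and 104. It was highest in the sa mutant, 2.14-fold above B9d1 KD, the next in order [2.05 to 2.25]. Against WT its fold was 6.43 [5.85 to 7.08] in the sa mutant, 3.00 [2.72 to 3.32] in B9d1 KD, 2.56 [2.32 to 2.83] in the sample labelled Klp59D KD and 1.86 [1.67 to 2.07] in that labelled Tektin-C KD.

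Taf12L stood out in the sa mutant and varied little among the other conditions. The WT libraries had 48.3 and 45.6 CPM, the B9d1 KD libraries 59.4 and 60.1, the libraries labelled Tektin-C KD 64.1 and 61.4, those labelled Klp59D KD 72.2 and 70.5, and the sa mutant ones 251 and 252. The sa mutant was 5.37-fold above WT [5.08 to 5.68] and 3.53-fold above the next sample, that labelled Klp59D KD [3.41 to 3.66]. The knockdowns were 1.28-fold to 1.52-fold above WT. B9d1 KD and the sample labelled Tektin-C KD were the only neighbours, of 20 such pairs over the 5 genes, whose interval holds 1 (1.05-fold, [0.998 to 1.10]), and their order turned with library size alone.

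The mia protein is related to Taf6, which pairs with Taf9. The WT libraries had 47.6 and 48.7 CPM, the B9d1 KD libraries 77.9 and 80.9, the libraries labelled Tektin-C KD 164 and 165, those labelled Klp59D KD 151 and 156, and the sa mutant ones 43.7 and 42.7. The samples fell into a high pair, the knockdowns labelled as rich in mature spermatocytes, a low pair of WT and the sa mutant, and B9d1 KD between them. Against WT the fold was 3.41 [3.22 to 3.62] in the sample labelled Tektin-C KD, 3.19 [3.02 to 3.38] in that labelled Klp59D KD and 1.65 [1.55 to 1.75] in B9d1 KD. Against WT the sa mutant had mia 1.12-fold lower than in WT [1.04 to 1.20]. This last direction depends on the scaling: the log2 fold was -0.16, and 0.62 with library size alone. The order of the high pair turned with library size alone as well.

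With 2-fold as the call, the testis TAFs were counted beside all 13831 genes. In B9d1 KD against WT 3 of 5 were higher (can, sa and nht) and 0 lower, where 27.3% of all genes were higher and 25.7% lower. In the sample labelled Tektin-C KD 1 of 5 (mia) was higher and 0 lower, against 21.2% and 17.1% of all genes. Here can, sa and nht lay just under the call, at log2 folds of 0.89, 0.95 and 0.89. Leaving out WT replicate 1 brought can over it (1.09), and leaving out WT replicate 2 brought sa over it (1.07), so that 2 of 5 were then higher. In the sample labelled Klp59D KD 4 of 5 were higher, all but Taf12L, and 0 lower, against 23.6% and 23.2%.

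For the sa mutant against WT 3 of 5 were higher (can, nht and Taf12L) and 1 lower (sa, the mutated gene), against 26.4% and 27.7% of all genes. The median log2 fold of the 5 genes was 1.58, 0.89, 1.5 and 2.42 in these comparisons in turn, beside 0.08, 0.13, 0.05 and 0.02 over all genes. These 4 comparisons share the WT sample. With library size alone the median of all genes moved to 0.65, 0.23, 0.59 and 0.78. The shares of all genes called were then 41% higher and 16.4% lower in B9d1 KD, 44.5% and 18% in the sa mutant, and 37.5% and 14.7% in the sample labelled Klp59D KD. The values of the testis TAFs are therefore relative to the TMM scaling, except for the ratios within a sample given further on.

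Markers of other cell types differed between the same samples. The 18 accessory gland markers, genes of seminal fluid proteins, summed to 46.2 to 47.0 CPM in the WT libraries with Acp63F at 0 counts. The libraries of B9d1 KD and of the sample labelled Tektin-C KD had sums of 519 to 549 CPM and those labelled Klp59D KD 3016 and 3029. The sa mutant libraries had 1375 and 1348, and there Acp24A4 was at 0 counts. Of 17 that passed the filter, 15 to 17 were at least 2-fold higher than WT in each comparison. Of all genes 21.2% to 27.3% were higher and 17.1% to 27.7% lower in these 4 comparisons. The 14 matched of 15 muscle sheath markers summed to 4464 to 4471 CPM in WT and 1065 to 2065 CPM elsewhere, with 11 or 12 lower in each comparison. The 6 hub and cyst cell markers did not move together, and are too few for their counts to be told from the shares of all genes. Of them 2 or 3 were lower in each comparison, Fas3 and hh in all 4, and 1 (upd1) was higher in the sample labelled Tektin-C KD. Their sum was 186 to 199.6 CPM in WT and 92.7 to 117 CPM elsewhere, while the cyst cell markers tj, eya and zfh1 lay within 2-fold of WT throughout. The 6 germ line markers matched of 7 had counts in every condition and went both ways, with 3 higher and 3 lower than WT in B9d1 KD, in the sample labelled Klp59D KD and in the sa mutant. In the sa mutant the early markers nanos and bam were at 49.1 against 8.07 CPM and 38.6 against 5.93 CPM, and betaTub85D, a tubulin of spermatocytes and later stages, was at 155 against 3726 CPM. For the sample labelled Tektin-C KD 1 was higher and 1 lower. Their sum followed the abundant late markers, at 8628 and 8665 CPM in WT, 2265 to 6724 in the knockdowns, and 588 and 592 in the sa mutant. The mitochondrial genome took 7.47% to 7.57% of counts in the WT and sa mutant libraries and 1.75% to 2.76% in the knockdown libraries. The part of these tissues and RNA classes in the levels of the testis TAFs was not tested.

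The knockdowns were also set against the sa mutant, which shares with 2 of them the label of mature spermatocytes and differs in driver and temperature. B9d1 KD had 1 of 5 higher (sa) and 2 lower (nht and Taf12L), where 23.9% of all genes were higher and 16.1% lower. The sample labelled Tektin-C KD had 2 higher (sa and mia) and 3 lower (can, nht and Taf12L), against 27.1% and 23.6%. The sample labelled Klp59D KD had 2 higher (sa and mia) and 2 lower (nht and Taf12L), against 24% and 16.3%. The mia transcript was 3.81-fold above the sa mutant in the sample labelled Tektin-C KD [3.63 to 3.999] and 3.56-fold in that labelled Klp59D KD [3.40 to 3.74]. In the same order, Taf12L was 4.01-fold [3.86 to 4.18] and 3.53-fold [3.41 to 3.66] below it, and nht 3.46-fold [3.27 to 3.67] and 2.51-fold [2.39 to 2.64] below it. So mia differed from nht and Taf12L in direction in both samples, under every scaling tried. These comparisons share the sa mutant sample. Under library size alone the shares of all genes higher and lower were 20.5% and 20.9% in B9d1 KD, 20.2% and 44% in the sample labelled Tektin-C KD, and 20.6% and 22.5% in that labelled Klp59D KD.

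Among the knockdowns, B9d1 KD had can and sa at least 2-fold higher and mia at least 2-fold lower than the sample labelled Tektin-C KD. In that comparison 14.6% of all genes were higher and 19.7% lower. The log2 folds were 1.69 for can, 1.14 for sa and -1.05 for mia, and with library size alone mia no longer passed the call (-0.57) while nht did (1.17). Against the sample labelled Klp59D KD, only can was called in B9d1 KD, higher with a log2 fold of 1.08, where 6.28% of all genes were higher and 7.13% lower. The mia transcript was lower there with a log2 fold of -0.95. Between the samples labelled Tektin-C KD and Klp59D KD 0 of 5 were called, where 14.5% of all genes were higher and 6.75% lower, and the log2 folds ran from -0.75 for sa to 0.10 for mia. With library size alone 2 of 5 were lower in the sample labelled Tektin-C KD there, can at -1.05 and sa at -1.19, where 7.32% of all genes were higher and 18.7% lower. In B9d1 KD against the sample labelled Tektin-C KD that scaling gave 29.2% higher and 11% lower.

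Levels of different genes were compared per kb of merged exon, and the share of each testis TAF in their sum does not depend on the scaling between samples. Taf12L was the most abundant testis TAF per kb in WT, with 48.9% of the sum, followed by sa (25.3%), mia (11.5%), nht (10.7%) and can (3.75%). In B9d1 KD sa led with 44.2%, ahead of Taf12L at 25.6%, and can reached 9.24%, its highest share of the 5 conditions. The sa share also led in the sample labelled Klp59D KD, at 35.5% against 32.2% for Taf12L. By coding length Taf12L led there, at 35.3% against 31.6%, while sa still led in B9d1 KD, at 40.7% against 29.1%. The mia share was 21.8% in the sample labelled Tektin-C KD and 15.9% in that labelled Klp59D KD, against 7.78% in B9d1 KD. The pool in the sa mutant was 72.1% Taf12L and 18.8% nht, the histone-fold partners, with 2.83% mia and 0.615% sa. The sum includes sa, which is depleted there by its own mutation, and this by itself raises the other shares. Summed over the 5 genes, the level was 590.4 CPM per kb in the sa mutant, 394.5 in B9d1 KD and 162 in WT, with 292 in the sample labelled Tektin-C KD and 374 in that labelled Klp59D KD.

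**Figure D2:**
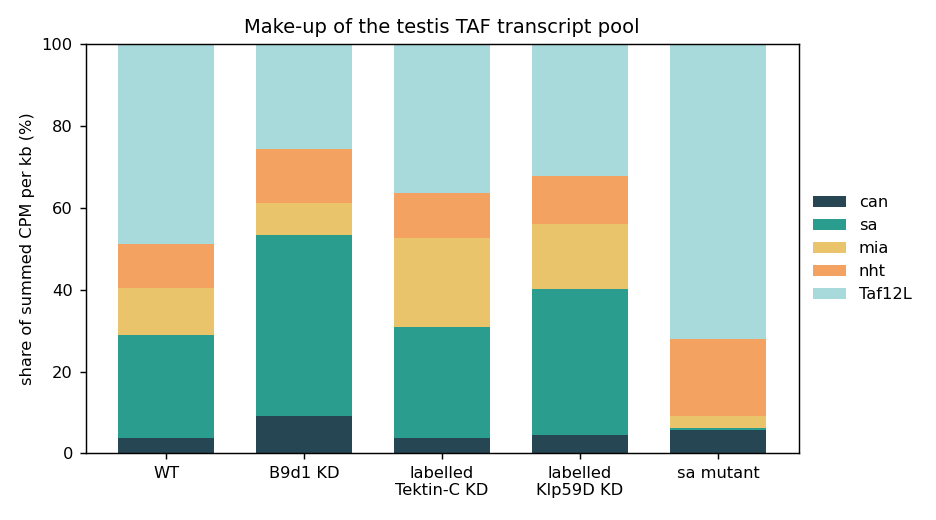
Share of each testis TAF (%) in the summed CPM per kb of the 5 genes, for the summed sample of each condition (stacked bars). Taf12L makes up 48.9% in WT and 72.1% in the sa mutant, where loss of sa by its own mutation raises the other shares. The sa share leads in B9d1 KD with 44.2% and in the sample labelled Klp59D KD with 35.5%.

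Each testis TAF was then set beside its general homolog within the same sample, a ratio per kb that also needs no scaling between samples. The testis form was the more abundant in 22 of the 25 pairs of gene and condition, and in 23 of 25 with coding length in place of merged exon length. The exceptions were sa in the sa mutant (0.194 of the Taf8 level) and mia in the sa mutant (0.456 of the Taf6 level, [0.432 to 0.481]) and in B9d1 KD (0.942, [0.902 to 0.983]). By coding length the ratio of mia to Taf6 in B9d1 KD was 1.22.

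Taf12L exceeded Taf12 by the widest margin, at 54.4 times in the sa mutant [49.6 to 59.8], 16.8 in WT and 18.2 in B9d1 KD, with 37.1 and 30.7 in the samples labelled Tektin-C KD and Klp59D KD. By coding length this ratio was 37.0 in the sa mutant, 11.4 in WT and 12.4 in B9d1 KD, still the widest margin. Taf12 itself was at only 3.53 to 9.65 CPM in the summed samples. The ratio of nht to Taf4 was 1.34 in WT and 1.43 to 1.91 in the knockdowns, and 5.22 in the sa mutant [5.03 to 5.43]. There nht was 6.43-fold and Taf4 1.65-fold above WT. By coding length the ratio was 1.02 in WT and 1.09 in B9d1 KD, so that nht and Taf4 were about level there, and 3.99 in the sa mutant. The ratio of sa to Taf8 was 4.66 in WT, 5.19 in B9d1 KD, and 2.70 and 3.71 in the samples labelled Tektin-C KD and Klp59D KD. The last 2 samples were thus below WT and B9d1 KD. Taf8 was at 39.2 and 48.1 CPM in them, and at 45.05 in B9d1 KD and 11.8 in WT, so its level did not set them apart from B9d1 KD.

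Over all 5 conditions, the sa mutant included, the ratio of can to Taf5 varied least of the 5 pairs. Without the sa mutant, that of nht to Taf4 varied less, and that of sa to Taf8 slightly less. The can and Taf5 values follow. The ratio was 2.04 in WT and 2.36 in the sa mutant, 3.81 in B9d1 KD, and 4.03 and 3.41 in the samples labelled Tektin-C KD and Klp59D KD. Taf5 in the sa mutant was 4.75-fold above WT, beside 5.49-fold for can. The mia and Taf6 pair diverged: Taf6 was 5.08-fold above WT in the sa mutant [4.59 to 5.62] and 4.52-fold in B9d1 KD [4.09 to 5.01], while mia was near WT in the first and 1.65-fold above it in the second. The ratio of mia to Taf6 ran from 0.456 in the sa mutant through 2.58 in WT to 3.45 in the sample labelled Tektin-C KD.

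**Figure D3:**
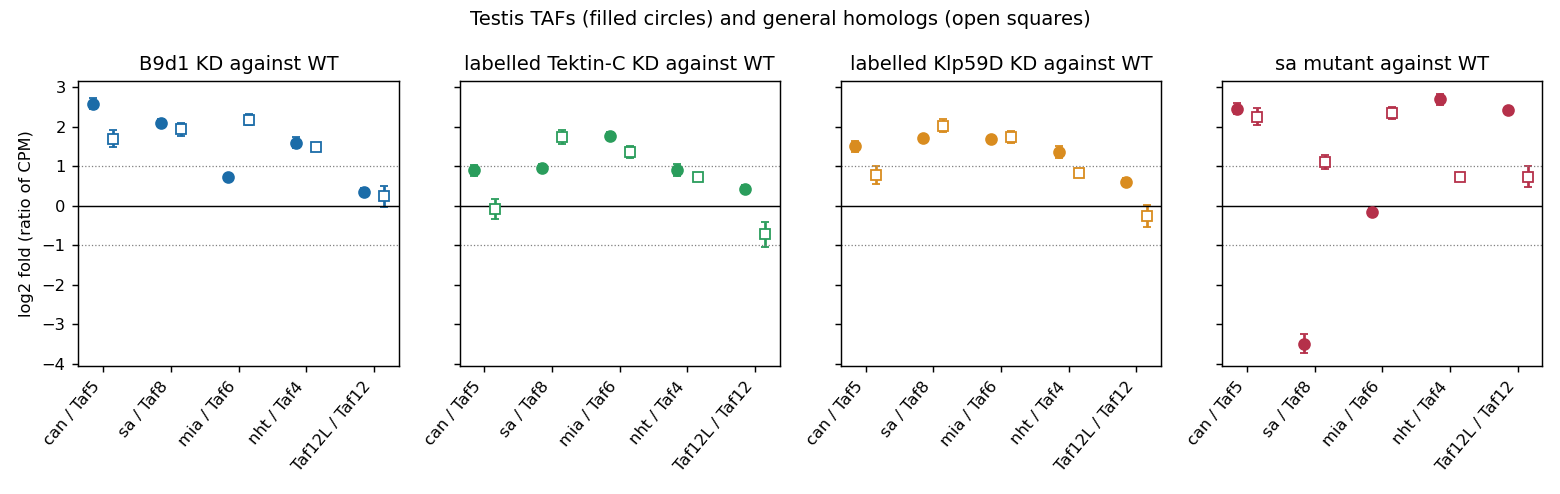
Log2 ratio of CPM against WT for each testis TAF (filled circles) and its general homolog (open squares), with bars for the exact 95% counting interval, solid line at 0 and dotted lines at 2-fold. In the sa mutant panel nht and Taf12L lie above their homologs, while mia at -0.16 lies below Taf6 at 2.34.

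The whole of TFIID was described from 15 general subunits, all of which passed the filter. In B9d1 KD against WT 10 of 15 were at least 2-fold higher and 0 lower (median log2 fold 1.20), with Taf1, the largest subunit, at 230.5 against 44.2 CPM and the TATA-binding protein gene Tbp at 12.8 against 2.66 CPM. For the sa mutant 6 of 15 were higher and 0 lower (median 0.72). Taf2 was at 226 against 43.8 CPM there, while Taf1 was at 51.3 against 44.2 CPM. With library size alone 11 of 15 were higher in the sa mutant. The sample labelled Tektin-C KD had 3 of 15 higher and that labelled Klp59D KD 5 of 15, with 0 lower in either. With library size alone 9 of 15 were higher in the latter. The shares of all genes called are those given above for the same comparisons.

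The 8 subunits of tMAC, the chromatin complex that acts with the testis TAFs, also differed among themselves in the sa mutant. There 6 of 8 were higher and 0 lower (median 1.49), with Caf1-55 at 151 against 21.3 CPM, achi at 106 against 19.1 CPM and comr at 32.4 against 6.96 CPM. The DNA-binding subunit topi, at 45.0 against 48.3 CPM, was near WT, as mia was. The other subunit not called was mip40, at 171 against 119 CPM. With library size alone 7 of 8 were higher in the sa mutant, against 44.5% of all genes. In B9d1 KD topi was at 157 CPM and mia at 79.5 CPM. The near-identical neighbours achi and vis may share reads, so their split is uncertain. Of 5 genes for testis bromodomain and Plus3 proteins, chromatin factors that work with the testis TAFs in spermatocytes, 4 were higher in each of the 3 knockdowns and 1 in the sa mutant, with 0 lower in any. Of all genes 27.3% were higher in B9d1 KD and 26.4% in the sa mutant. In the samples labelled Tektin-C KD and Klp59D KD the shares were 21.2% and 23.6%. Library size alone gave 2 of 5 in the sa mutant, against 44.5% of all genes. The gene called there was tbrd-3, at 61.7 against 9.21 CPM, while tbrd-2 was at 97.3 against 87.8 CPM.

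Genes on which the testis TAFs are known to act were read from the same samples. Of 15 spermatid differentiation genes 14 were lower and 0 higher in the sa mutant (median log2 fold -3.71), against 27.7% and 26.4% of all genes. Mst84Db, a sperm tail gene, was at 217 against 8374 CPM. The dj transcript, also of a sperm tail protein, was at 72.2 against 1652 CPM, and Mst36Fa at 1.92 against 91.9 CPM. The exception was fzo, whose product fuses spermatid mitochondria, at 87.4 against 122 CPM. In B9d1 KD sa, can and nht were 3.00-fold to 5.99-fold above WT. There 11 of the 15 were lower and 1, fzo, was higher (median -1.29), against 25.7% and 27.3% of all genes. With library size alone 7 were lower, against 16.4% of all genes. In the sample labelled Tektin-C KD 3 were lower and 2 higher (median 0.03), near the 17.1% and 21.2% of all genes. In that labelled Klp59D KD 9 were lower and 1 higher (median -1.36), against 23.2% and 23.6% of all genes. Library size alone left 4 lower and 1 higher there, against 14.7% and 37.5% of all genes. The neighbouring Mst84D genes may share reads.

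Of 3 genes of meiotic entry, CycB, the mitotic cyclin gene, was at 244 CPM in the sa mutant against 60.2 in WT. The phosphatase gene twe, whose product drives entry into the meiotic divisions, was at 139 against 166 CPM, and boule (bol), an RNA-binding regulator of twe translation, at 157 against 1028 CPM. Thus 1 was at least 2-fold higher, 1 at least 2-fold lower and 1 within 2-fold of WT in the sa mutant, while in B9d1 KD CycB and twe were higher than in WT and bol lay within 2-fold of it.

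**Figure D4:**
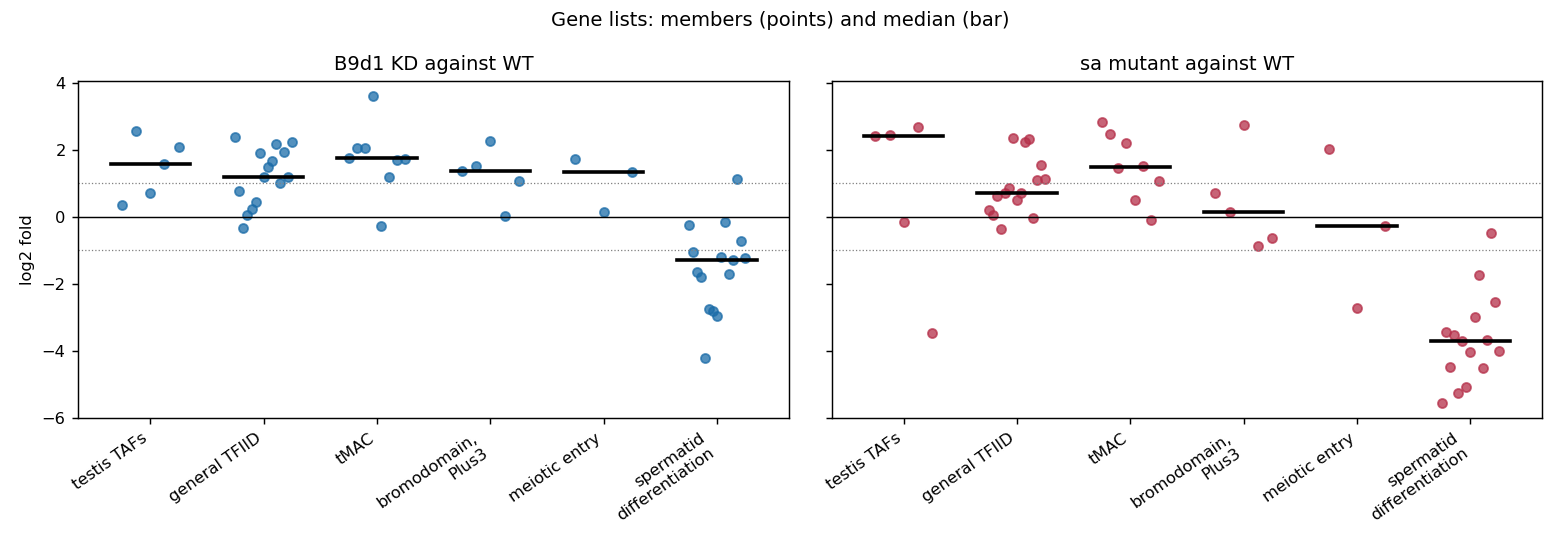
Log2 fold against WT of the members of 6 gene lists (points) with their median (bar), in B9d1 KD (left) and in the sa mutant (right), with dotted lines at 2-fold. In the sa mutant the spermatid differentiation genes have a median of -3.71 and the testis TAFs one of 2.42, with sa at -3.48 and mia at -0.16 apart from the other 3.

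Profiles over the 5 conditions were compared by the root mean square difference of their centred log2 CPM, where 0 is the same shape. As 5 conditions are too few for a correlation, this is a description. Taf12L and nht were 0.42 apart, with 2.65% of 9588 genes nearer to Taf12L than nht was and 7.28% nearer to nht than Taf12L was. The can and nht profiles were 0.43 apart, with 6.15% of genes nearer to can. For sa, read over the 4 conditions other than the sa mutant, nht was 0.21 and can 0.26 away, with 3.23% and 5.80% of genes nearer. The mia profile was at least 1.30 from those of can, nht and Taf12L, farther than the median gene (1.02), and 0.79 from sa over 4 conditions, against a median of 0.85 from sa.

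The nearest named genes were sought among 5421 coding genes with a symbol. For can they were Tfb4, TfIIS and CSN6 (0.11 to 0.12 away), and for sa rig, koi and NaCP60E (0.03 to 0.04 over 4 conditions). For nht they were Vps39, Mybbp1A and borr (0.04 to 0.10), and for Taf12L Tsp39D, trsn and Smu1 (0.18 to 0.20). For mia they were r-cup, a gene transcribed after meiosis, Tsp33B and Taz (0.19 to 0.20 away). The r-cup level was 97.4 CPM in WT, 93.9 in the sa mutant and 148 in B9d1 KD. In the samples labelled Tektin-C KD and Klp59D KD it was 409 and 262. As r-cup was picked for its nearness to mia, the order it shares with mia follows from that choice. By the largest single difference instead, 12 of these 15 names were found again. The names lost were TfIIS for can, r-cup for mia and Tsp39D for Taf12L.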

How the data were processed

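RNA was ribosome-depleted and made into libraries with a stranded kit, per the labels' protocols. The build dm6, STAR 2.5.1b and Trim Galore 0.4.1 are named by the submitters' processing notes. The files deposited by the authors hold raw counts per gene, whole numbers without scaling. How reads were counted (tool, strand, multi-mapping reads, gene models) is not stated in the sources. For symbols and exon lengths Ensembl 115 gene models of that build were used (17138 of 17412 identifiers had a symbol). The 2 libraries of a condition were summed, because they agreed within little more than sampling noise and the labels give only a replicate number. This was the design set for that case. edgeR's quasi-likelihood test and DESeq2 1.42.0 on the 10 libraries, which measure only the spread between such libraries, were alternatives. Genes passing filterByExpr of edgeR 4.0.16 were scaled by TMM (factors 0.756 to 1.29), and log2 CPM used a prior count of 2. CPM and the folds given with intervals use no prior. A call is 2-fold. Depth per library gives the counting intervals stated. Same-numbered libraries deviated together (correlation of log2 ratios 0.180 to 0.283 over 7962 genes in every pair of conditions), so the numbers pair them.

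The 5 genes, the 14 lists and the tests were chosen with earlier results of these data known. Named genes are the members, their homologs, the targeted genes, overlapping genes, up to 4 members of a list with the largest absolute log2 fold in the comparison described, and the 3 nearest profiles of each member. List members that stayed within 2-fold of WT (topi, mip40, tbrd-2, fzo, Taf1 in the sa mutant) and values in a second comparison were named after their values were seen. The markers vas and wupA matched no identifier.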

Additional observations from a re-analysis of the deposited data

How the results depend on the processing

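Counts of testis TAFs at least 2-fold apart were recomputed with library size alone, with RLE factors, without a low-count filter, CPM over 5 in at least 2 libraries, leaving out structural RNA and mitochondrial genes, each library left out, only the 2 compared conditions, edgeR's quasi-likelihood test without and with a replicate block, DESeq2 and a 1.5-fold call. Of 200 recomputed counts 193 stayed within 1.5 times the reported one. Many of these left out a library outside the compared conditions, or a library that its repeat closely matched, and could hardly move. The tally also ignores which genes were called. With library size alone, mia was lost and nht gained in B9d1 KD against the sample labelled Tektin-C KD. In the sample labelled Tektin-C KD against WT the count moved from 1 to 2 with library size alone and to 4 with the 1.5-fold call, and leaving out 1 library gave 1 to 2. Between the samples labelled Tektin-C KD and Klp59D KD it moved from 0 to 2 with library size alone and with the 1.5-fold call. In B9d1 KD against the sample labelled Klp59D KD the 1.5-fold call gave 2. The replicate block changed no count of testis TAFs: with it, edgeR's quasi-likelihood test at an adjusted p under 0.05 and 2-fold called against WT 3 in B9d1 KD, 4 in the sa mutant, and 1 and 4 in the samples labelled Tektin-C KD and Klp59D KD. It called 0 between the samples labelled Tektin-C KD and Klp59D KD, as did DESeq2. No log2 fold of 1 or more in size changed sign under any alternative. Library size alone moved folds by up to 0.78, and 42 of 50 fell outside their counting intervals.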

Other observations

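Of 10 general transcription factor genes outside TFIID, 6 were at least 2-fold higher than WT in B9d1 KD, 6 in the sa mutant, 6 in the sample labelled Klp59D KD and 5 in that labelled Tektin-C KD, with 0 lower in any. The medians were 1.29, 1.31, 1.36 and 0.90. Of all genes 27.3%, 26.4%, 23.6% and 21.2% were higher in these comparisons in the same order. With library size alone 10 of 10 were higher in the sa mutant. TfIIA-S-2, a second gene for the small TFIIA subunit, was at 60.1 CPM in B9d1 KD and 52.4 in the sa mutant against 9.96 in WT, and TfIIEbeta at 92.3 and 124 against 21.2. Trf2, a TBP-related factor needed for spermatogenesis, was at 779 and 418 CPM against 178. Of 28 measured Mediator genes, which encode the coactivator that links regulators to RNA polymerase II, 15 were higher in B9d1 KD, 18 in the sa mutant, 8 in the sample labelled Klp59D KD and 2 in that labelled Tektin-C KD, with 0 lower in any, beside the same shares of all genes. MED20 was at 28.0 CPM in the sa mutant, 8.63 in B9d1 KD and 4.45 in WT. The counts with library size alone were 25, 26, 22 and 4 in the same order.

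Polycomb PRC1 is a repressive complex that testis TAFs have been proposed to displace from spermatid gene promoters, which was not tested here. Of 5 PRC1 genes 5 were higher in B9d1 KD, 2 in the sa mutant, 4 in the sample labelled Klp59D KD and 1 in that labelled Tektin-C KD. In the same order 27.3%, 26.4%, 23.6% and 21.2% of all genes were higher. Under library size alone 4 were higher in the sa mutant and 2 in the sample labelled Tektin-C KD. In B9d1 KD and the sa mutant Pc was at 22.2 and 19.3 CPM against 5.96 in WT, and the ubiquitin ligase gene Sce at 15.2 and 46 against 7.14. The neighbouring copy ph-d was at 36.1 and 5.91 against 3.76 CPM, and reads of ph-d and ph-p may be split between them.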
